A study of Mus musculus with 6 samples.

Results

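Genes of mitochondrial protein import and of the mitochondrial proteases were examined in whole mouse kidney, from mice labelled as proximal tubule knockouts of Pck1 and from WT littermates. The members were chosen by name. They were the genes whose symbol starts with Tomm or Timm and a digit, together with Hspd1, Hspa9, Lonp1, Clpp, Clpx, Afg3l2, Spg7, Yme1l1, Pmpca, Pmpcb, Grpel1, Dnaja3, Trap1, Chchd4 and Gfer. The array carried probes for 41 such genes among 23785 gene symbols. Of these, 40 were tested. Tomm20l, a paralogue of Tomm20, was not well above background on any of the 6 arrays.

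Each array held total RNA of whole kidney from 1 sample labelled with Cy3. The 3 Pck1-CKO samples came from Pck1 flox/flox/γGT-Cre tg/+ mice, in which the γGT-Cre transgene directs recombination to the proximal tubule. The 3 WT samples were littermates matched for age and sex. Control littermates of this cross could be Pck1 flox/+, could also carry the transgene (Pck1 flox/+/γGT-Cre tg/+), or could be Pck1 flox/flox without it, and which of these a WT sample was is not stated. All were C57BL/6J mice killed at 32 weeks. Recombination is not directed to other kidney cells in this model. The arrays measured all cells together, so fewer cells of a type and less RNA per cell cannot be told apart. Whether every array had its own animal is not stated, so the p-values cover the spread among these samples, which may be technical.

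Nearly all mitochondrial proteins are made in the cytosol and carried into the organelle. They cross the outer membrane through the TOM complex. Proteins with a cleavable presequence then pass through TIM23 into the matrix, carrier proteins are inserted into the inner membrane by TIM22, and small cysteine-rich proteins are trapped in the intermembrane space by a disulfide relay. Matrix chaperones pull in and fold the arriving chains, a peptidase removes the presequences, and AAA and Clp proteases degrade damaged or surplus protein. The proximal tubule is among the cell types richest in mitochondria, and whole-kidney RNA holds much of it.

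Signals are given as normalised log2 signals, the log2 of the processed signal minus the array's 75th percentile. A value of 0 is a signal at that percentile. Levels of different probes are not comparable. Between 37606 and 38490 probes lay well above background on a Pck1-CKO array, and between 37118 and 38708 on a WT array, of 56605. The tissue was checked with 8 proximal tubule markers, none of which passed the test. Their log2 changes ran from -0.23 to 0.30, with 4 positive and 4 negative. The summed signal of the 8 markers, in multiples of the 75th percentile, was 1379 to 1429 in Pck1-CKO and 1367 to 1425 in WT. Bright probes weigh most in such a sum. Pck1 itself measured 6.44, 6.60 and 6.90 in the arrays labelled Pck1-CKO, against 6.29, 6.32 and 5.63 in those labelled WT. The groups did not overlap for Pck1 (nor in 38.3% of all genes), and its log2 change was 0.56 ± 0.22 (SE, limma adjusted p = 0.152). Where its 1 probe lies with respect to the floxed segment is not stated, and a probe beyond that segment tests no label, so all directions are those of the labels. Pck1-CKO 3 and WT 3 stood apart from their groups. Their limma array weights were 0.46 for Pck1-CKO 3 and 0.35 for WT 3, against 0.95 to 3.02 for the other arrays. Pck1-CKO filled row 2 of the slide and WT row 1, and row cannot be told apart from genotype.

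The comparison of Pck1-CKO with WT asks how the import and protease genes differ in kidneys labelled as carrying a proximal tubule knockout of Pck1. None of the 40 tested genes passed at a limma adjusted p under 0.05, in either direction. Most had a small positive change. Their median log2 change was 0.078, with 37 positive and 3 negative, against a median of 0.0091 over all 17136 genes tested. A positive change was found for 92.5% of the members and for 52.2% of all genes. The count of 37 was 32 after quantile normalization, where 52.1% of all genes had a positive change. It was 39 after subtraction of each array's median, where 68.3% of all genes did. Leaving out the 2 dimmest members, Timm8a2 and Tomm6os, the log2 changes of the other 38 reached at most 1.21-fold. The 95% intervals of those 38 lay between 0.908-fold and 1.36-fold.

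In all, 4.34% of genes (743) passed as higher and 3.7% (634) as lower, 8.04% together. After subtraction of the array median 2434 genes passed as higher and 560 as lower. At an unadjusted p under 0.05, limma found 7 members, 17.5%, of which 6 were higher and 1 lower, where 31.2% of all genes did. The arrays of the 2 groups did not overlap in 14 members, 35%, where they did not overlap in 38.3% of all genes. Other settings of the same fit called between 0 and 17 members. With array weights 16 were called higher and 1 lower, 42.5% of the members, where 34.4% of all genes were called. Subtraction of the array median called 5 higher and 0 lower, and an intensity trend with robust variance 4 higher and 1 lower. Each of these is 12.5% of the members, where 17.5% and 16.5% of all genes were called. With both arrays numbered 3 left out, a setting chosen after seeing the data, 3 members (7.5%) passed as higher and 0 as lower, where 14.3% of all genes passed in either direction. They were Gfer, Hspd1 and Timm17a.

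**Figure D1:**
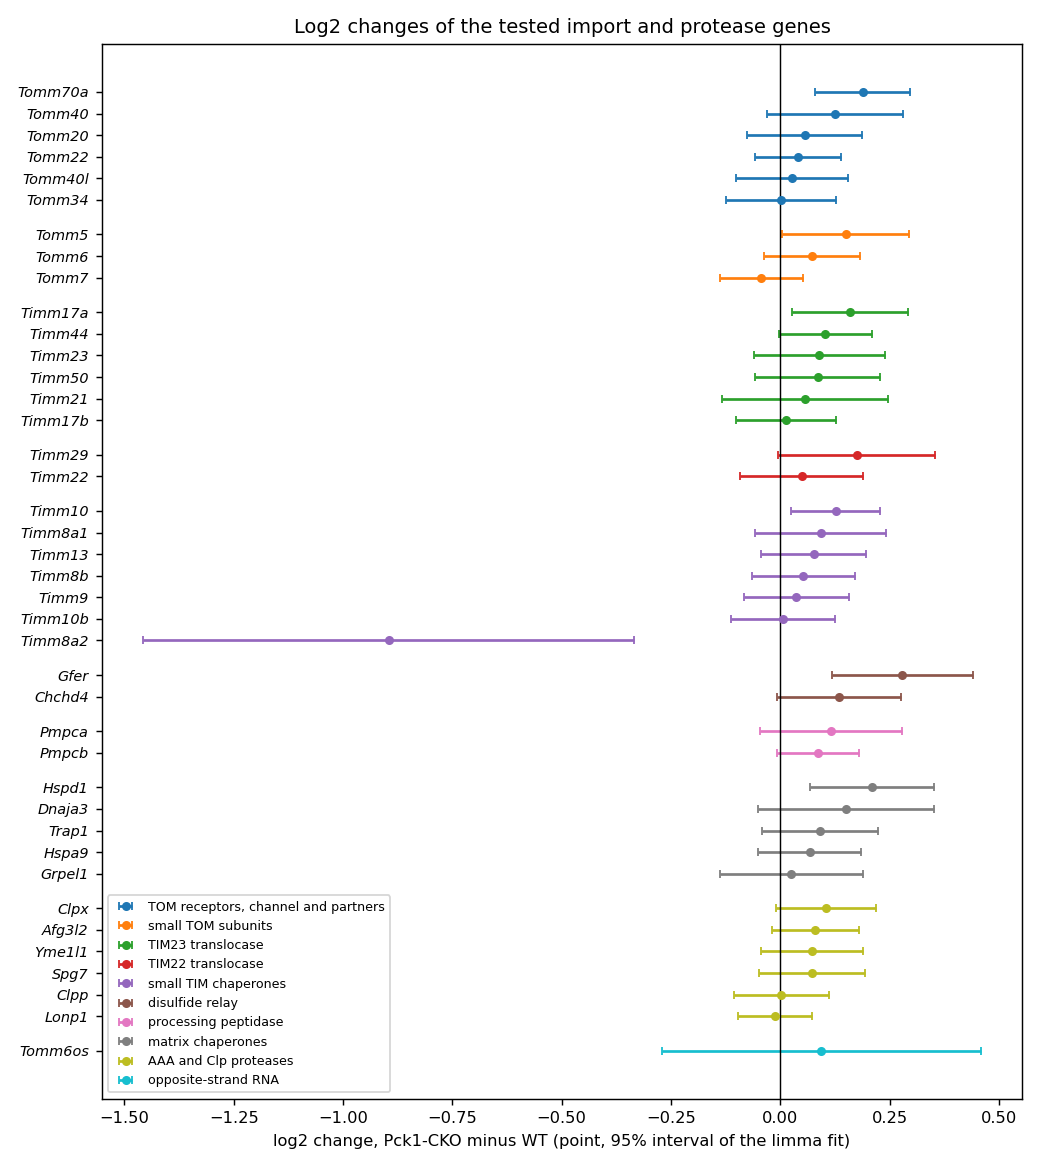
Log2 change (Pck1-CKO minus WT, x axis) of the 40 tested import and protease genes, grouped by role. Points are limma estimates and bars their 95% intervals. The points of 37 genes lie right of 0, all but 1 of them between 0 and 0.21, and Timm8a2 stands alone at -0.90.

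The proximal promoters of the 5 members with the lowest p are shown to give the sequence around the start of each of these genes. Each line holds 300 bases, from 250 before the start to 50 after it, 5′ to 3′ on the strand of the gene, from RefSeq on GRCm38.p6. Capitals mark matches on either strand to CCGGAAG, the core bound by ETS factors such as GABP, and in Hspd1 also to a heat shock element, searched as GAA, TTC and GAA with any 2 bases between neighbours. The array files name another build, and these positions were not used to place probes.
Tomm70a (GRCm38.p6, chr16:57121464-57121763, plus strand): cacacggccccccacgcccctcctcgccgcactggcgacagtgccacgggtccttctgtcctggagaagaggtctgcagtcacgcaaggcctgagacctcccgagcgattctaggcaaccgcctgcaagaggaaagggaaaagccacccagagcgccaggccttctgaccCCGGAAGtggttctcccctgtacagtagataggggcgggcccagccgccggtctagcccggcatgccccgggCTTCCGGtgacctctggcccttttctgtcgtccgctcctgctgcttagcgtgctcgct
Gfer (GRCm38.p6, chr17:24696107-24696406, minus strand): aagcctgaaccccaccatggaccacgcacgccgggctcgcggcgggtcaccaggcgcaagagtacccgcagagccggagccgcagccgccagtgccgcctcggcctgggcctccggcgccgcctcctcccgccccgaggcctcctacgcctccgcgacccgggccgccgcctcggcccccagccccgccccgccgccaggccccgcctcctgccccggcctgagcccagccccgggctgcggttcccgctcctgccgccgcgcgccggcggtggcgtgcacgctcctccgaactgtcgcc
Timm8a2 (GRCm38.p6, chr14:122034424-122034723, plus strand): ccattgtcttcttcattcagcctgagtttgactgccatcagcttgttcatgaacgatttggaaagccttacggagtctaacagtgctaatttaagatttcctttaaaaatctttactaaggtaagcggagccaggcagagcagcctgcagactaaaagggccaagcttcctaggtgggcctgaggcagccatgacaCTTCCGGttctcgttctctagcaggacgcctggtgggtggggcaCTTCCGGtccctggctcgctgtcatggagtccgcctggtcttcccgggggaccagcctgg
Hspd1 (GRCm38.p6, chr1:55087883-55088182, minus strand): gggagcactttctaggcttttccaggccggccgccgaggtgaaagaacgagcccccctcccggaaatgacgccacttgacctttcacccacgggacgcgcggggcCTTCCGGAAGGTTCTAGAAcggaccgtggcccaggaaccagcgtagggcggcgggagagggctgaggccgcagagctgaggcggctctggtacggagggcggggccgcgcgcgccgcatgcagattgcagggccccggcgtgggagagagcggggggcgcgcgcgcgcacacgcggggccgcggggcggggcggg
Timm10 (GRCm38.p6, chr2:84826771-84827070, plus strand): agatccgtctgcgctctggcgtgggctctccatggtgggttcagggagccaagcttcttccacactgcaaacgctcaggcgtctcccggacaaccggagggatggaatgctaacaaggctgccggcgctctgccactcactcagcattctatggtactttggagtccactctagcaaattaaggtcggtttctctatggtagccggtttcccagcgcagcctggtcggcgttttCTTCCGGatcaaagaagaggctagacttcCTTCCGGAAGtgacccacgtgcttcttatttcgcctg

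The ETS core occurred in each of these windows other than that of Gfer. In Hspd1 and Timm10 it formed a palindrome that reads as the core on both strands, and in Hspd1 it ran into 2 overlapping matches to the heat shock element. Hspd1 has 2 windows in the table, of which the one with more matches is shown. Of the 35 tested members with a window, 16 (45.7%) held the ETS core, as did 16.2% of the 13511 tested genes with a window. The core of NRF1, searched as GCGCA and GCGC with any 1 base between them, occurred in 6 members (17.1%) and in 9.17% of tested genes. The heat shock element occurred in Hspd1 and Timm9, and in 0.622% of tested genes. TGATGCAA, an element bound by ATF4 with CHOP, had 0 matches among the members and was found for 0.807% of tested genes. All 4 motifs were searched on both strands. The median log2 change was 0.080 in the 16 members with the ETS core and 0.090 in the 19 without it. A match describes the letters and is not a site.

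At the outer membrane, the receptor Tomm70a had the lowest p of all members. Tomm70a, which recognises carrier proteins and docks cytosolic chaperones, measured 1.73, 1.72 and 1.80 in Pck1-CKO, against 1.54, 1.53 and 1.60 in WT. Each Pck1-CKO array lay above each WT array. The log2 change of Tomm70a was 0.19 ± 0.044 (SE, n = 3 per group, limma adjusted p = 0.0557), 1.14-fold. Its adjusted p ranged from 0.0128 to 0.164 over the alternatives run. The receptors for presequences had smaller values, 0.056 for Tomm20 and 0.041 for Tomm22. Tomm40, the channel of the complex, had a log2 change of 0.13 ± 0.063 (limma adjusted p = 0.234). In WT 3 Tomm40 measured 3.39, within the range of 3.37 to 3.42 in Pck1-CKO, whereas WT 1 and WT 2 gave 3.24 and 3.18. Its paralogue Tomm40l had 0.027, and the cytosolic co-chaperone Tomm34 had 0.0014.

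Among the small TOM subunits, which stabilise the channel, Tomm5 measured 5.34, 5.41 and 5.31 in Pck1-CKO, against 5.12, 5.19 and 5.30 in WT. The lowest Pck1-CKO array and WT 3 differed by little. The log2 change of Tomm5 was 0.15 ± 0.059 (limma adjusted p = 0.151). Tomm6 had 0.073. Tomm7 was 1 of the 3 members with a negative change, at 5.81, 5.79 and 5.82 in Pck1-CKO against 5.84, 5.82 and 5.88 in WT. The groups of Tomm7 did not overlap but almost touched, with Pck1-CKO 3 at 5.8204 and WT 2 at 5.8212. Its log2 change was -0.043 ± 0.038 (limma adjusted p = 0.478), and after subtraction of the array median it was 0.032. Tomm6os, an RNA from the strand opposite Tomm6 and a member by its symbol alone, was dim and had 0.093 ± 0.15.

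**Figure D2:**
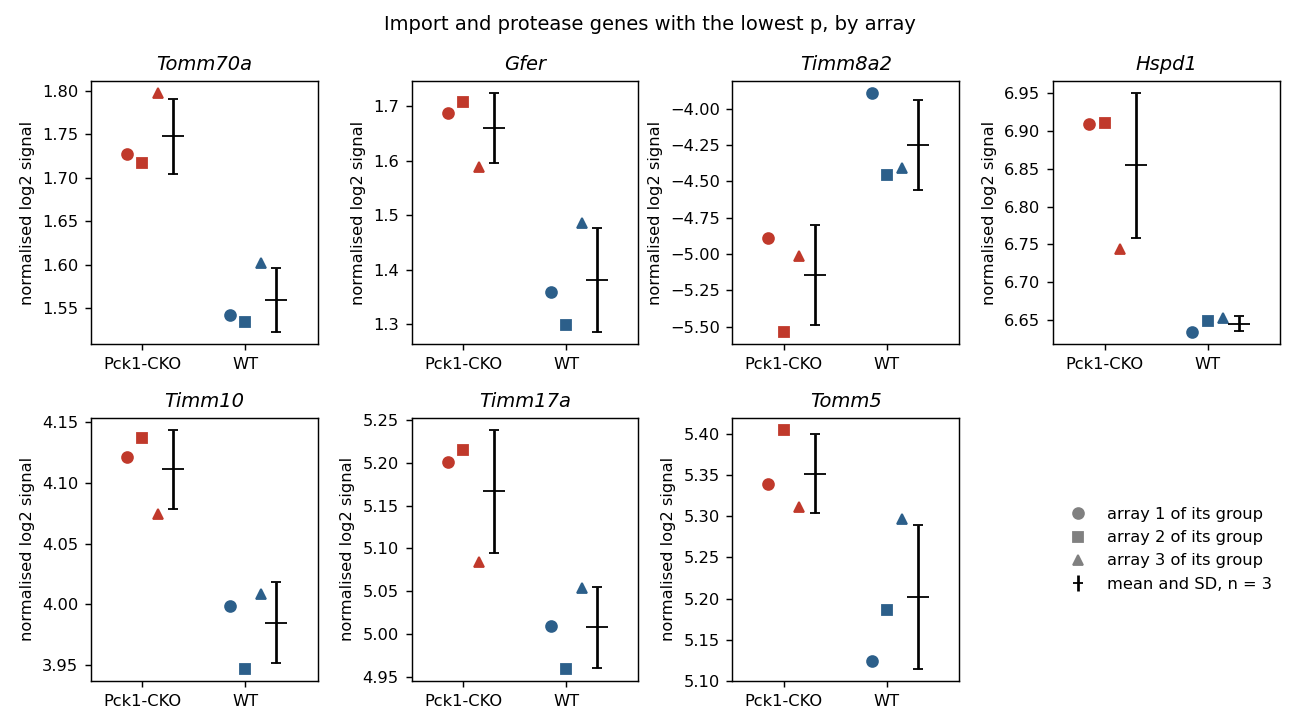
Normalised log2 signal (y axis, a separate scale in each panel) in the 3 Pck1-CKO and 3 WT arrays for the 7 members with an unadjusted p under 0.05. Symbols mark single arrays, and the bar beside them is the mean with its SD. In each panel the groups are separate, WT 3 is the highest WT array in all panels but that of Timm8a2, and Pck1-CKO 3 is the lowest Pck1-CKO array for Gfer, Hspd1, Timm10, Timm17a and Tomm5.

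In the presequence translocase TIM23 all 6 members had a positive change, from 0.013 to 0.16, though Timm17b turned to -0.028 after quantile normalization and -0.0099 without WT 2, and Timm21 to -0.0095 without Pck1-CKO 3. Timm17a, which forms the translocation path with Timm23, was highest of these. It measured 5.20, 5.22 and 5.08 in Pck1-CKO, against 5.01, 4.96 and 5.05 in WT. The groups did not overlap, though Pck1-CKO 3 and WT 3 were close. The log2 change of Timm17a was 0.16 ± 0.054 (limma adjusted p = 0.113), 1.12-fold. Its X-linked paralogue Timm17b had 0.013. Timm44, which tethers the import motor to the channel, had 0.10 ± 0.043 with groups that did not overlap (limma adjusted p = 0.172). Timm23 had 0.089, the presequence receptor Timm50 had 0.085 and Timm21, which links TIM23 to the TOM complex, had 0.057.

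In the carrier translocase, Timm22, its channel, had 0.049 and the subunit Timm29 had 0.17 ± 0.072 (limma adjusted p = 0.168). Timm29 measured -1.33, -1.37 and -1.32 in Pck1-CKO, against -1.46, -1.66 and -1.42 in WT, and the groups did not overlap. The small TIM chaperones escort hydrophobic proteins across the intermembrane space as rings of Timm9 with Timm10 or of Timm8 with Timm13. Timm10 measured 4.12, 4.14 and 4.07 in Pck1-CKO, against 3.999, 3.95 and 4.01 in WT. Each Pck1-CKO array was above each WT array, and the log2 change was 0.13 ± 0.041 (limma adjusted p = 0.104), 1.09-fold. Its partner Timm9 had 0.037. Timm8a1, Timm8b and Timm13 had 0.092, 0.053 and 0.076, and Timm10b had 0.0063.

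Timm8a2, a paralogue of Timm8a1, had the largest difference of any member and the only sizeable negative one. It measured -4.89, -5.54 and -5.01 in Pck1-CKO, against -3.89, -4.45 and -4.41 in WT. The groups did not overlap, at a log2 change of -0.90 ± 0.23 (limma adjusted p = 0.0652), 0.537-fold. Its probe was well above background on all 6 arrays but was dim. With background correction by normexp, whose offset shrinks dim signals, the log2 change was -0.33. It passed in 2 of 18 alternatives.

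The disulfide relay holds both of its members above 0.1. Gfer, the oxidase that recycles the relay, had the largest positive change of any member. It measured 1.69, 1.71 and 1.59 in Pck1-CKO, against 1.36, 1.30 and 1.49 in WT. The Pck1-CKO arrays lay above the WT arrays, with WT 3 nearest to them. The log2 change of Gfer was 0.28 ± 0.065 (limma adjusted p = 0.0557), 1.21-fold, with a 95% interval of 0.12 to 0.44. Without WT 3 it was 0.33, with adjusted p = 0.0429. Gfer passed in 8 of 18 alternatives, with adjusted p between 0.00754 and 0.184 over them. Chchd4, the import receptor of the relay that Gfer reoxidises, had 0.13 ± 0.057 (limma adjusted p = 0.175). It measured 2.73, 2.76 and 2.71 in Pck1-CKO, against 2.59, 2.51 and 2.69 in WT, and the groups did not overlap.

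The 5 matrix chaperones had a positive change, from 0.025 to 0.21, though Grpel1 turned to -0.0033 after quantile normalization and -0.016 without WT 2, and Hspa9 to -0.0033 with the mean over its probes. Hspd1, the chaperonin HSP60 that folds imported proteins, measured 6.91, 6.91 and 6.74 in Pck1-CKO, against 6.63, 6.65 and 6.65 in WT. The WT arrays lay close together, and Pck1-CKO 3 lay nearer to them than the other Pck1-CKO arrays did. The log2 change of Hspd1 was 0.21 ± 0.058 (limma adjusted p = 0.0764), 1.16-fold. Without Pck1-CKO 3 it was 0.27, with limma adjusted p = 0.0313, and without any other single array Hspd1 did not pass. Hspd1 passed in 6 of 18 alternatives, with limma adjusted p between 0.0116 and 0.230 over them. Hspe1, the HSP10 lid of the same chaperonin, was not a member. It is transcribed from the opposite strand, and its promoter window overlaps the one printed for Hspd1. It measured 6.15, 6.17 and 6.08 in Pck1-CKO, against 5.91, 5.89 and 5.98 in WT. For Hspe1 the log2 change was 0.20 ± 0.046 (limma adjusted p = 0.0547), and the groups did not overlap. Hspa9, the HSP70 of the import motor, had 0.068, its exchange factor Grpel1 had 0.025, and its co-chaperone Dnaja3 had 0.15 ± 0.082 (limma adjusted p = 0.264). Trap1, an HSP90 of the matrix, had 0.090. For these other 4 chaperones the groups overlapped.

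The processing peptidase removes presequences after import. Its catalytic subunit Pmpcb measured 5.98, 6.00 and 5.98 in Pck1-CKO, against 5.87, 5.90 and 5.94 in WT, a log2 change of 0.086 ± 0.038 (limma adjusted p = 0.19). The groups of Pmpcb did not overlap. Pmpca, which binds the substrate, had 0.11 ± 0.066, and WT 3 at 1.43 lay above the highest Pck1-CKO array at 1.42.

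The 6 AAA and Clp proteases had log2 changes from -0.013 to 0.10, with a median of 0.073. Lonp1, the main ATP-dependent protease of the matrix, measured 5.22, 5.23 and 5.21 in Pck1-CKO, against 5.23, 5.23 and 5.24 in WT. These values overlapped, at -0.013 ± 0.034 with a 95% interval of -0.098 to 0.073, and the change was 0.063 after subtraction of the array median. Clpp, the peptidase of the Clp complex, had 0.0024 ± 0.044. Its unfoldase Clpx measured 3.43, 3.55 and 3.52 in Pck1-CKO, against 3.39, 3.40 and 3.39 in WT, with groups that did not overlap and a log2 change of 0.10 ± 0.046 (limma adjusted p = 0.186). Of the inner-membrane AAA proteases, Afg3l2 had 0.080 ± 0.040 with groups that did not overlap (limma adjusted p = 0.231), its partner Spg7 had 0.072 and Yme1l1, which faces the intermembrane space, had 0.073.

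The members shared a pattern across arrays. Relative to the mean of the WT arrays, their median was 0.070, 0.097 and 0.070 in Pck1-CKO 1, 2 and 3, and -0.017, -0.038 and 0.058 in WT 1, 2 and 3. The median of all genes tested was 0.0078, 0.010 and 0.022 in the same Pck1-CKO arrays, and -0.0084, -0.0054 and 0.012 in the WT arrays. WT 3 lay nearest to the Pck1-CKO arrays for the members and among them for all genes. It was the highest WT array in 34 of the 40 members, and in 44.3% of all genes tested. Both WT 1 and WT 2 lay below the lowest Pck1-CKO array in 29 of the 40 members and in 31.8% of all genes. WT 3 did in 14 of the 40 members and in 34.3% of all genes. Without WT 3 the median log2 change of the members was 0.10, and without WT 2 it was 0.057.

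Markers of fat cells also differed between the groups. Of all genes 4.34% rose (limma adjusted p under 0.05), as did 4 of 7 brown adipocyte markers and 2 of 8 white adipocyte markers. Their summed signals were 53.7 to 58.0 (brown) and 86.9 to 137 (white) in Pck1-CKO, against 23.0 to 26.4 and 16.4 to 34.0 in WT. Every marker of both lists was well above background on at least 3 arrays. Of 4 collecting duct markers 1 rose and 3 fell, of 3 distal tubule markers 1 fell, of 4 podocyte markers 1 fell and of 3 thick ascending limb markers 1 rose. In either direction 8.04% of all genes passed. All 3 distal tubule markers had negative changes (-0.45 to -0.27), and all 3 thick ascending limb markers positive ones (0.13 to 0.31). The groups did not overlap in any of them, nor in 38.3% of all genes. No tested marker of endothelium, leukocytes, red cells or adrenal passed. The 2 red cell markers tested had 0.36 and 0.41. The part of these other cells in the small positive changes was not tested.

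**Figure D3:**
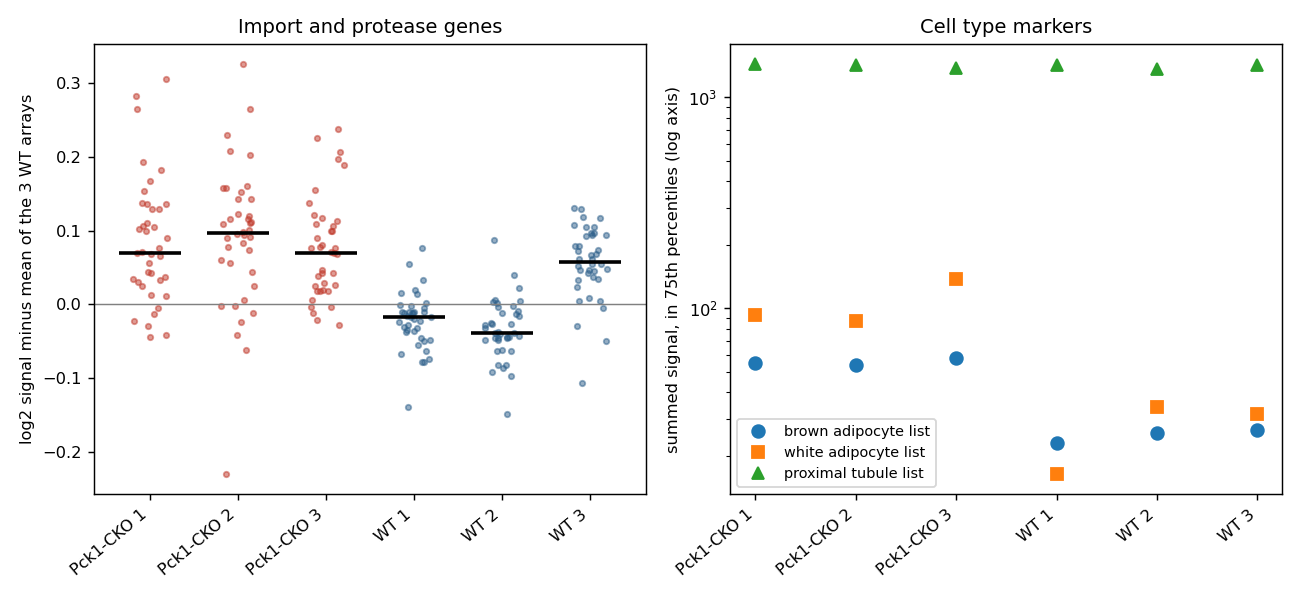
Left, log2 signal of each tested import and protease gene minus its mean over the WT arrays, by array, with the median as a bar (Timm8a2, at -0.90, is in the median but outside the plotted points). Right, summed signal of marker lists by array on a log axis, where the fat cell sums separate the groups and the proximal tubule sum does not, while on the left WT 3 sits at 0.058, near the Pck1-CKO arrays.

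Several members had more than 1 tested probe, which gave a check within the array. For 18 members there were 24 further probes, of which 20 had an estimate of the same sign as the brightest probe and 4 of the opposite sign. The second Gfer probe measured 0.47, 0.41 and 0.35 in Pck1-CKO, against 0.11, 0.015 and 0.060 in WT. The groups did not overlap, and WT 1 was the nearest WT array. In a limma fit over 25517 single probes, where 6.02% of all probes passed, this Gfer probe rose, with a log2 change of 0.35 ± 0.052 (adjusted p = 0.0331). It was the 1 probe that passed among the 64 tested probes of the members. The second probe of Hspd1 had 0.30 ± 0.077 and that of Tomm5 had 0.23 ± 0.060. Probes disagreed in sign for Hspa9, Afg3l2 and Yme1l1, whose second probes had -0.074, -0.052 and -0.016, and for Timm10b. The 5 further probes of Timm10b had log2 changes between -0.52 and 0.24. The lowest came from a dim probe, well above background on only 1 Pck1-CKO and 2 WT arrays. The others were positive, from 0.036 to 0.24.

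Other genes of the same pathways were taken from 2 lists. Of 22 further import genes 0 passed in limma, and their median log2 change was 0.025. Limma gave 3 of them, 13.6%, an unadjusted p under 0.05 (2 positive, 1 negative), where 31.2% of all genes had one. The import genes with the lowest p were Hspe1 and Dnajc11, a J protein tied to the inner membrane's MICOS complex, at 0.18 ± 0.046 (limma adjusted p = 0.0629). Of 15 further protease genes tested, 1 rose and 0 fell, 6.67%, where 8.04% of all genes passed. The 1 that rose was Lactb, a filament-forming serine protease homologue of the intermembrane space. It measured 3.56, 3.57 and 3.53 in Pck1-CKO, against 3.39, 3.37 and 3.38 in WT. The groups of Lactb did not overlap, at a log2 change of 0.17 ± 0.036 (limma adjusted p = 0.046). It no longer passed when any single array was left out, with adjusted p between 0.0594 and 0.174. Nor did it pass after quantile normalization (limma adjusted p = 0.098), without the filter on dim probes (0.108), with both arrays numbered 3 left out (0.0585), with the replicate block (0.105) or with the mean over its probes, where the log2 change was 0.11 (0.139).

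Regulators of the mitochondrial stress response gave mixed values. Atf4, a transcription factor made when translation is restrained by stress, rose. It measured 5.59, 5.61 and 5.54 in Pck1-CKO, against 5.24, 5.30 and 5.25 in WT, a log2 change of 0.31 ± 0.041 (limma adjusted p = 0.0239). Without Pck1-CKO 1, Pck1-CKO 2, WT 1 or WT 2 it did not pass, with adjusted p between 0.082 and 0.114, nor without the filter on dim probes (0.069) or with the replicate block (0.0758). Atf5, which drives chaperone and protease genes of the mitochondria, had 0.34 ± 0.14 with overlapping groups (limma adjusted p = 0.178). Ddit3, which encodes CHOP, had -0.089 ± 0.073 (limma adjusted p = 0.445).

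Other mitochondrial genes and the chaperones of other compartments are given for scale, and differences between these lists were not tested. Of 78 genes of the mitochondrial ribosome 2 rose and 1 fell, 3.85%, where 8.04% of all genes passed. The ribosome genes had a median log2 change of 0.046, with 60 positive. The complex I list held the 46 genes whose symbol starts with Nduf, assembly factors included. Of these 1 rose, the assembly factor Ndufaf4, and 0 fell, 2.17%, with a median of -0.013 and 15 positive. Of 21 cytosolic and endoplasmic reticulum chaperones 10 rose and 0 fell, 47.6%, with a median of 0.26 and 19 positive. These lists were chosen with earlier results of these data known.

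**Figure D4:**
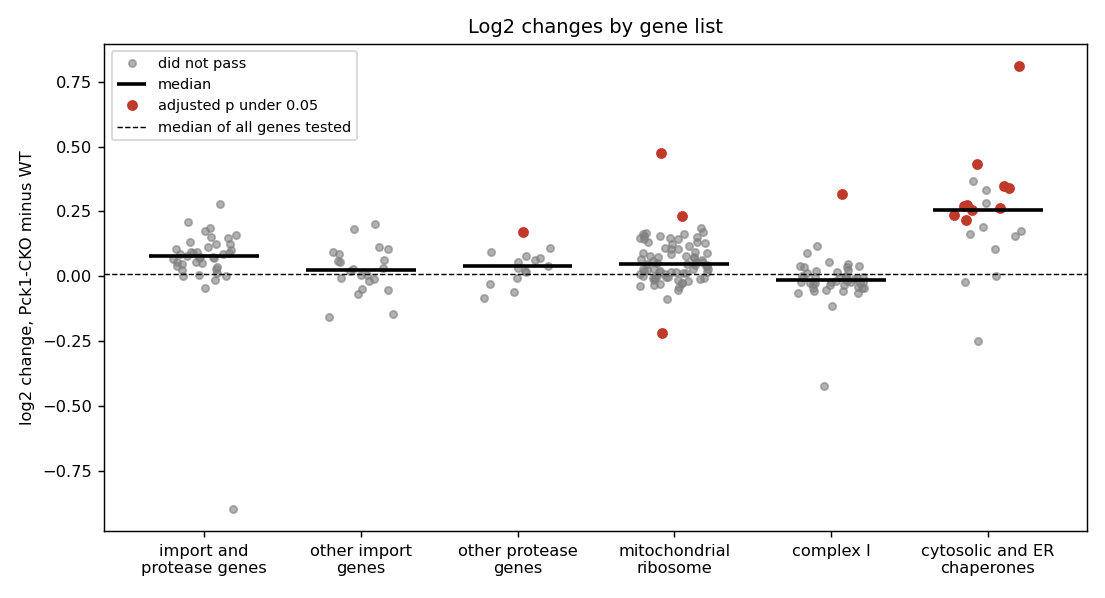
Log2 change (Pck1-CKO minus WT, y axis) of each tested gene in 6 lists. Red points passed at a limma adjusted p under 0.05, bars are medians, and the dashed line is the median of all genes tested at 0.0091. None of the 40 members, in the leftmost column, passed, and 10 of 21 cytosolic and endoplasmic reticulum chaperones did, where 8.04% of all genes passed.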

How the data were processed

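Total RNA from whole kidneys of 3 Pck1-CKO and 3 WT samples was measured on Agilent arrays with 1 colour, per the labels. The deposited scanner files hold linear intensity values of Agilent Feature Extraction 10.7.1.1, whose processed signal is, per the file headers, corrected for background and for trends across the array. A deposited value table gives a ratio, the processed signal averaged per probe over a single factor for each array (column medians 0.099, 0.097 and 0.098 in Pck1-CKO, 0.104, 0.103 and 0.102 in WT). Its scale and direction are settled by the scanner values, and it served as an alternative.

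Spots with outlier flags (46 to 94 per array) were left out, log2 signals were averaged per probe, and the 75th percentile of each array was subtracted. No spot was saturated. Probes were named through unversioned RefSeq accessions, from a table of GRCm38.p6. Of 56605 probes, 34675 had 1 symbol and 21930 stayed unnamed. Probes had to be well above background on 3 or more arrays, and the brightest such probe stood for its gene. All 17136 genes were fitted by limma 3.58.1 (lmFit, eBayes; R 4.3.3) with 2-sided tests, Benjamini-Hochberg adjustment over all genes and a threshold of 0.05. The procedure was tested on simulated data, where calls were required only for changes larger than that of any member. The test does not show how often changes as small as those of most members would pass. Errors of log2 changes are standard errors of this fit. The number of arrays limits the precision.

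Members were named in full. Those with the lowest p are given by array, and genes of the other pathway lists only if they passed or, where none did, if they had the lowest p. The members and lists were chosen with earlier results of these data known. Alternatives changed the scaling, the background, the filter on dim probes, the probe standing for a gene, the variance model and the weight of arrays, or used the value table, kept outlier spots, left out arrays or added a replicate block. Normexp (offset 50) was run on median in place of mean signals, as given in the scanner files.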

Additional observations from a re-analysis of the deposited data

How the results depend on the processing

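With 0 members past the threshold in either direction as reported, the number called moved with the processing. Higher in Pck1-CKO were 5 after subtraction of the array median, 2 with normexp, 2 among probes well above background on all arrays, 1 with the mean over probes, 4 with an intensity trend and robust variance, 16 with array weights and 3 with both arrays numbered 3 left out. Lower was 1 with the intensity trend and 1 with array weights. Normexp called 5% of the members and 11.2% of all genes in either direction. Among probes well above background on all arrays these shares were 5% and 10.8%, and with the mean over probes 2.5% and 6.96%. Leaving out single arrays gave 0 to 1 higher (Hspd1 without Pck1-CKO 3, Gfer without WT 3) and 0 lower. Without Pck1-CKO 3 this was 2.5% of the members, where 8.93% of all genes passed, and without WT 3 2.5%, where 7.98% did. Quantile normalization, the value table, no filter on dim probes, outlier spots kept and the replicate block called 0. In all 17 members passed in at least 1 of 18 alternatives and 23 in none. Each of the 17 passed with array weights, where 34.4% of all genes did. The sign was the same in all of them for 29 members and turned in at least 1 for 11, none of which was called. The median log2 change was 0.15 after subtraction of the array median, which moved that of all genes to 0.085, and 0.048 after quantile normalization, with that of all genes at 0.0086. Leaving out single arrays gave 0.057 to 0.10.

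Counts over all genes, 743 higher and 634 lower as reported, were 2434 higher after subtraction of the array median, 61 and 81 without the filter, 1682 and 1149 with the intensity trend, 3285 and 2614 with array weights, 3 and 1 with the replicate block, and 1304 and 1154 with both arrays numbered 3 left out. Leaving out single arrays gave 16 to 779 higher and 9 to 806 lower, with at most 39 higher and 31 lower without Pck1-CKO 1, Pck1-CKO 2, WT 1 or WT 2. With the sample number as a replicate block 0 members passed in limma, 5 had an unadjusted p under 0.05 and their median was 0.078. Same-numbered samples did not deviate together (correlations of -0.00097, -0.11 and -0.023). With 3 arrays per group this cannot exclude a pairing, and the main fit used none. The sample number was also the slide column. All arrays shared 1 slide, and no block for slide or scan was fitted. Dim members, Timm8a2 and Tomm6os, have the widest intervals, and Tomm20l was not well above background. The causes were not tested.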
